A study of Homo sapiens with 8 samples.

Results

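The genes described here are 10 transcription regulators of the sympathetic, or adrenergic, lineage of neuroblastoma: TFAP2B, ISL1, GATA2, GATA3, HAND1, HAND2, PHOX2A, SIX3, EYA1 and TBX2. They were chosen by name and found through the gene symbol of each array probe. They are 10 of the 21524 genes with a symbol on the array, and they have 11 probes, 2 of them for EYA1. Expression was measured in total RNA on 8 one-colour arrays of NGP, an established human neuroblastoma cell line. Per the labels, 4 arrays carry RNA of NGP cells transduced by lentivirus with CFC1 cDNA, which encodes the Nodal co-receptor Cryptic, and 4 carry RNA of NGP cells transduced with a mock construct. Both groups were selected with puromycin, and nothing in the labels tells whether the 4 came from separate cultures, so a p-value here measures array-to-array spread that may be technical. The comparison asks how CFC1 affects the transcripts of this line.

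Neuroblastoma arises from sympathoadrenal precursors of the neural crest. In its adrenergic state a small set of transcription factors is known to bind its own and each other's enhancers and to keep the noradrenergic programme active, including the enzymes of catecholamine synthesis. Cells can also take a mesenchymal state with other regulators. TFAP2B is an AP-2 factor, ISL1 a LIM homeodomain protein, GATA2 and GATA3 are zinc finger proteins, HAND1 and HAND2 are basic helix-loop-helix proteins and PHOX2A is a paired-type homeodomain protein. SIX3 is a homeodomain protein best known from the forebrain and eye, EYA1 a co-activator that works with proteins of the SIX3 family, and TBX2 a T-box repressor.

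Each deposited value is relative to a baseline of its probe that is not stated, on a logarithmic scale read as log2. The values give differences between arrays and no level of expression, so the defining markers of the line cannot be checked for presence. A negative difference means lower in the arrays labelled CFC1 than in mock arrays (n = 4 each). Of all 50599 probes, 42.1% passed an adjusted p of 0.05 in limma, and 53.6% of the 31993 probes with a gene symbol did: in the arrays labelled CFC1, 27.2% were higher and 26.4% lower. The median difference was -0.13 over all probes, and -0.03 after the arrays were set to the E1A control spots. The probe of the transduced gene, CFC1, read 0.05, -0.69, -0.59 and -0.30 in the arrays labelled CFC1 (replicates 1 to 4), against 0.47, 1.10, 0.12 and -0.03 in mock arrays. It was thus not higher in the arrays labelled CFC1, with a difference of -0.80 (95% interval -1.45 to -0.14, limma adjusted p = 0.0546, exact two-sided permutation p = 0.0571), and every direction below rests on the labels. The adjusted p fell to 0.0393 without CFC1 replicate 1 and to 0.0376 without mock replicate 4.

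Promoter sequences are shown for TFAP2B, ISL1, GATA2 and HAND1, which were lower together in the arrays labelled CFC1, and for HAND2, the paralog of HAND1 with a smaller difference. Each runs 5′ to 3′ on the strand of the gene, from 250 bases before to 50 bases after a RefSeq start site, in build GRCh38.p14. Capitals mark matches on either strand to motifs of the members' own families: AGATAA for GATA factors, CANNTG (the E box) for HAND proteins with their partners, GCCNNNGGC for AP-2 factors, TAATTA for homeodomain proteins and GGTGTG for T-box proteins.

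TFAP2B promoter, chr6:50818621-50818920, plus strand: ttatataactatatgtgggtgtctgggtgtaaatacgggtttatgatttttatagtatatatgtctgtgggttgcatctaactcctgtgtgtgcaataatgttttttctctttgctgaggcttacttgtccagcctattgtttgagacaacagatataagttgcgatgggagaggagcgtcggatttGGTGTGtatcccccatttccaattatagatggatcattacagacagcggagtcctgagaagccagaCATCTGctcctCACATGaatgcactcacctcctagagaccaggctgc

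ISL1 promoter, chr5:51383198-51383497, plus strand: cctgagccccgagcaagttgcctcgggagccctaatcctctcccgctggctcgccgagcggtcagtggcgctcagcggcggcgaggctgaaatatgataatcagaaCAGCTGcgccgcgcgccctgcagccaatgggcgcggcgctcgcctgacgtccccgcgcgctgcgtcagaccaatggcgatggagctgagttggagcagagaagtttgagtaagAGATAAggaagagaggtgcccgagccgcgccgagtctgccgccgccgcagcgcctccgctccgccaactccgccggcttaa

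GATA2 promoter, chr3:128493152-128493451, minus strand: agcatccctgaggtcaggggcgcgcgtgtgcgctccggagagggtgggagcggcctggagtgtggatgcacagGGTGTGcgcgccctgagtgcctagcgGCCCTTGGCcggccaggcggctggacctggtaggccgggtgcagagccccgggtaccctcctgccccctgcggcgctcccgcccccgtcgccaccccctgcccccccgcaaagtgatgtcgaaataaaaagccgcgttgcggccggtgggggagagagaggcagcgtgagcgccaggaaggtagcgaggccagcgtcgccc

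HAND1 promoter, chr5:154478178-154478477, minus strand: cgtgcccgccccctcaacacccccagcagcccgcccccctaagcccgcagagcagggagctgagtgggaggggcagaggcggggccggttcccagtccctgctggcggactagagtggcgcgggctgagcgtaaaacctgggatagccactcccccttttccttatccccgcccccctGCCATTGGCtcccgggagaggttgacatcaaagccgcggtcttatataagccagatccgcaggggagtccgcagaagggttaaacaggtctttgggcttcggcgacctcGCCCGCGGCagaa

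HAND2 promoter, chr4:173530180-173530479, minus strand: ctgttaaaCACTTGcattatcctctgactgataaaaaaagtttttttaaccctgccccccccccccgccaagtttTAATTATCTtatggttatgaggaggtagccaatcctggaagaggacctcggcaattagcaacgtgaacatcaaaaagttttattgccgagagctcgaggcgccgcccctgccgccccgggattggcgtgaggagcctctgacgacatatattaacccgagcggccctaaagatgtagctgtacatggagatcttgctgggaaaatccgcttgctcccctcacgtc

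Of the 10 genes, 7 had entries in the RefSeq promoter table, with 13 start sites in all. The ISL1 promoter held a GATA motif that begins 31 bases before the start and an E box at 144 bases before it. In the HAND2 promoter a homeodomain motif and a GATA motif overlapped, at 175 and 172 bases before the start. The GATA2 promoter shown held a T-box motif and an AP-2 motif, the HAND1 promoter held 2 AP-2 motifs, and the TFAP2B promoter held 2 E boxes and a T-box motif. The GATA motif was present in 2 of the 13 promoters and in 10.3% of all 35116 promoters of the table, and the homeodomain motif in 1 of 13 and 4.84% of all. The E box was present in 7 of 13 and 68.7% of all, the AP-2 motif in 6 of 13 and 23.2%, and the T-box motif in 6 of 13 and 16.8%. These are counts of start sites and not of genes, and GATA3 had more of the 13 than any other member. The AP-2 matches lay in promoters of GATA2, HAND1 and GATA3 only. The T-box matches lay in those of GATA2, TFAP2B, GATA3 and PHOX2A only. The promoters of 1 gene share sequence context, and a match is a description of letters. Base composition differed between promoters, with a median of 58.7% of bases G or C over all promoters. The share was 43.0% in the TFAP2B promoter, which held no AP-2 motif. It ran from 60.7% to 74.7% in the 6 promoters with an AP-2 motif, all above that median. The part of base composition in the motif counts was not tested.

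Most of the adrenergic regulators had lower signals in the arrays labelled CFC1 than in mock arrays. Among the 11 probes, 9 fell, for 8 genes, 1 rose (TBX2) and 1 did not pass (PHOX2A). Of all probes with a symbol, 26.4% were lower and 27.2% higher. The groups did not overlap for 10 of the 11 probes, where they did not overlap for 54.7% of all probes with a symbol. Differences of at least 2-fold downward were found for 5 probes, those of TFAP2B, SIX3, ISL1, GATA2 and HAND1, and for 9.24% of all probes with a symbol. The median difference of the 11 probes was -0.85, and that of all probes with a symbol was -0.10. The members were chosen with earlier results of these data known, so these counts describe them and test nothing. In bulk RNA, fewer cells of a type and less RNA per cell cannot be told apart.

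**Figure D1:**
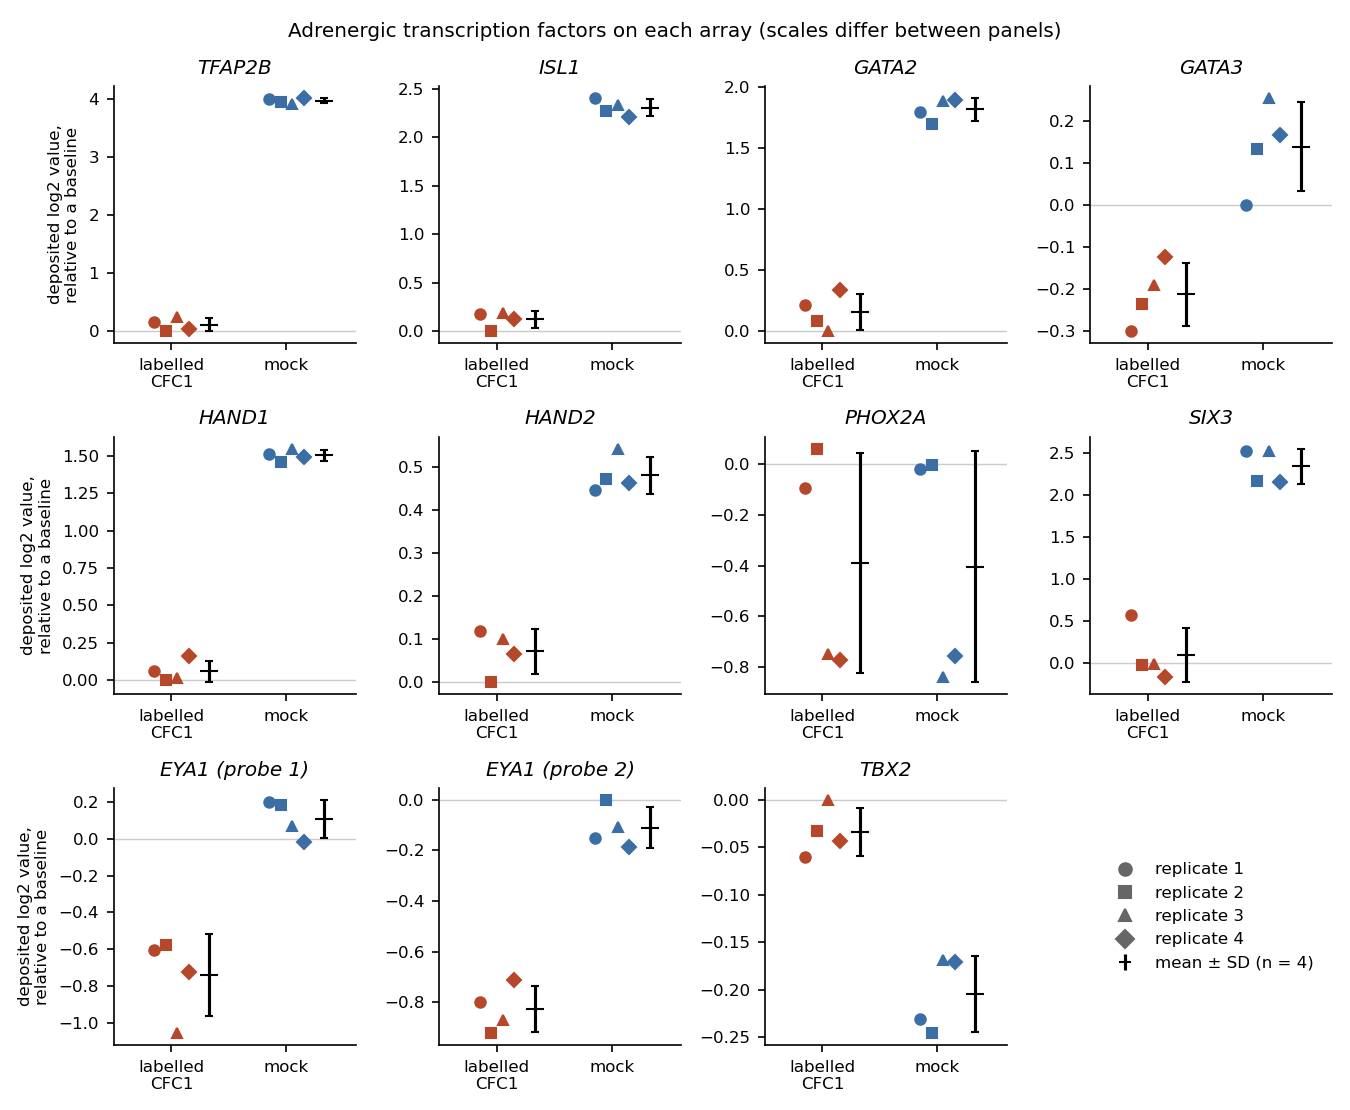
Deposited log2 values of the 11 probes on each array, relative to an unstated baseline, with arrays labelled CFC1 on the left and mock arrays on the right of each panel. Symbols are replicates 1 to 4, bars are the mean ± SD (n = 4), and vertical scales differ. The groups stand clear of each other in every panel but that of PHOX2A, in which both groups split between replicates 1 and 2 and replicates 3 and 4.

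TFAP2B, which is required for sympathetic and adrenal noradrenergic cells in mice, showed the largest difference of the 10. Its probe (A_33_P3317163) read 0.17, 0, 0.25 and 0.04 in the arrays labelled CFC1, against 3.999, 3.95, 3.93 and 4.03 in mock arrays. Every array labelled CFC1 lay more than 3 log2 units below every mock array. The mean was 0.11 ± 0.11 in the arrays labelled CFC1 and 3.98 ± 0.05 in mock arrays (SD, n = 4 each). The difference was -3.86 (SE 0.07, 95% interval -4.02 to -3.71), a 14.6-fold lower signal, with a limma adjusted p of 1.28e-08. The exact permutation test gave p = 0.0286, the smallest that 70 arrangements of 8 arrays allow, and it gave that value for each of the 10 probes whose groups did not overlap. In size this difference exceeded that of 98.3% of the probes with a symbol. For HAND2, GATA3 and TBX2, the members with the smallest differences that passed, the share was 51.1%, 46.0% and 26.8%.

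ISL1, which sympathetic neurons of mice need for survival and differentiation, followed the same pattern at a smaller size. Its probe (A_23_P81529) read 0.18, 0, 0.18 and 0.13 in the arrays labelled CFC1, against 2.41, 2.27, 2.33 and 2.21 in mock arrays. The difference was -2.18 (SE 0.07, 95% interval -2.34 to -2.03, limma adjusted p = 1.42e-07), a 4.54-fold lower signal. The 2 groups stood well apart, with an SD of 0.09 in the arrays labelled CFC1 and 0.08 in mock arrays.

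The GATA factors differed from each other. The GATA2 probe (A_33_P3550894) read 0.21, 0.08, 0 and 0.34 in the arrays labelled CFC1, against 1.80, 1.69, 1.89 and 1.89 in mock arrays. All 4 arrays labelled CFC1 were below all mock arrays, and the difference was -1.66 (SE 0.09, 95% interval -1.86 to -1.45, limma adjusted p = 2.79e-06), or -1.08 after quantile normalization. GATA3, which mouse sympathetic neurons need for their noradrenergic traits, moved far less. Its probe (A_33_P3360341) read -0.30, -0.24, -0.19 and -0.12 in the arrays labelled CFC1, against 0, 0.13, 0.25 and 0.17 in mock arrays. The gap between the closest arrays of the 2 groups was 0.12, and the difference was -0.35 (SE 0.07, 95% interval -0.51 to -0.19, limma adjusted p = 0.00406). The change of GATA2 relative to GATA3 within each array was itself different between the groups. GATA2 minus GATA3 averaged 0.37 ± 0.15 in the arrays labelled CFC1 and 1.68 ± 0.10 in mock arrays (SD, n = 4 each), a difference of -1.31 (exact two-sided permutation p = 0.0286, also adjusted over 5 pairs). The 5 pairs of genes compared in this way were chosen after their values were seen. Each gave 0.0286 in the exact permutation test, the smallest p that 70 arrangements allow. Adjustment over these 5 pairs does not correct for that choice, so the p-values describe the pairs and test nothing.

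The HAND factors also moved unequally. HAND1 (probe A_23_P58770) read 0.06, 0, 0.01 and 0.16 in the arrays labelled CFC1, against 1.51, 1.46, 1.55 and 1.496 in mock arrays. No array of one group came within 1 log2 unit of the other group. The difference was -1.45 (SE 0.05, 95% interval -1.57 to -1.32, limma adjusted p = 3.52e-07), or -0.96 after quantile normalization. HAND2, which drives noradrenergic differentiation of sympathetic neurons in mice, read 0.12, 0, 0.10 and 0.07 in the arrays labelled CFC1, against 0.45, 0.47, 0.54 and 0.46 in mock arrays (probe A_23_P373521). Its groups did not overlap, and the difference was -0.41 (SE 0.05, 95% interval -0.52 to -0.30, limma adjusted p = 0.000218). After quantile normalization the HAND2 difference was -0.13 and no longer passed (adjusted p = 0.198). HAND1 minus HAND2 averaged -0.01 ± 0.08 in the arrays labelled CFC1 and 1.02 ± 0.04 in mock arrays (SD, n = 4 each), a difference of -1.04 (exact permutation p = 0.0286, also adjusted over 5 pairs). This pair too was chosen after its values were seen, so the p-value is a description only.

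PHOX2A, an activator of dopamine beta-hydroxylase that mice need to form the locus coeruleus, was the member whose groups overlapped. Its probe (A_33_P3353295) read -0.10, 0.06, -0.75 and -0.77 in the arrays labelled CFC1, against -0.02, -0.01, -0.84 and -0.76 in mock arrays. In both groups replicates 1 and 2 were high and replicates 3 and 4 were low. The difference was 0.02 (95% interval -0.66 to 0.69, limma adjusted p = 0.967, exact permutation p = 0.857), and this interval does not show that the groups are alike. Replicates 1 and 2 averaged -0.02 in the arrays labelled CFC1 and -0.01 in mock arrays, and replicates 3 and 4 averaged -0.76 in the arrays labelled CFC1 and -0.80 in mock arrays. The SD within a group was 0.43 in the arrays labelled CFC1 and 0.45 in mock arrays, the highest of the 11 probes, whose median SD was 0.09 and 0.08. On the whole array, 80 probes had replicates 1 and 2 above replicates 3 and 4 by over 0.5 in both groups, and 16 had the opposite pattern. The labels give no date or batch for the arrays.

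SIX3 and EYA1, a homeodomain protein and a co-activator, were lower. The SIX3 probe (A_24_P34611) read 0.57, -0.02, -0.01 and -0.16 in the arrays labelled CFC1, against 2.53, 2.17, 2.52 and 2.16 in mock arrays. Replicate 1 was the highest of the arrays labelled CFC1 and still lay 1.58 below the lowest mock array. The difference was -2.25 (SE 0.18, 95% interval -2.67 to -1.83, limma adjusted p = 2.65e-05). The first EYA1 probe (A_33_P3216763) read -0.60, -0.58, -1.06 and -0.72 in the arrays labelled CFC1, against 0.20, 0.18, 0.07 and -0.02 in mock arrays. The second EYA1 probe (A_33_P3366667) read -0.80, -0.92, -0.87 and -0.71 in the arrays labelled CFC1, against -0.15, 0, -0.11 and -0.19 in mock arrays. Both probes showed separate groups and the same direction, with differences of -0.85 (SE 0.12, limma adjusted p = 0.000581) and -0.71 (SE 0.07, limma adjusted p = 5.95e-05).

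TBX2 was the member that was higher. Its probe (A_23_P164451) read -0.06, -0.03, 0 and -0.04 in the arrays labelled CFC1, against -0.23, -0.25, -0.17 and -0.17 in mock arrays. The groups did not overlap, and TBX2 rose by 0.17 (SE 0.04, 95% interval 0.07 to 0.27, limma adjusted p = 0.0126), a 1.12-fold change. The call was lost when each array was centred on its median (0.21, adjusted p = 0.078) and after quantile normalization (0.20, adjusted p = 0.0582), and the difference was 0.27 after scaling to the E1A spots.

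**Figure D2:**
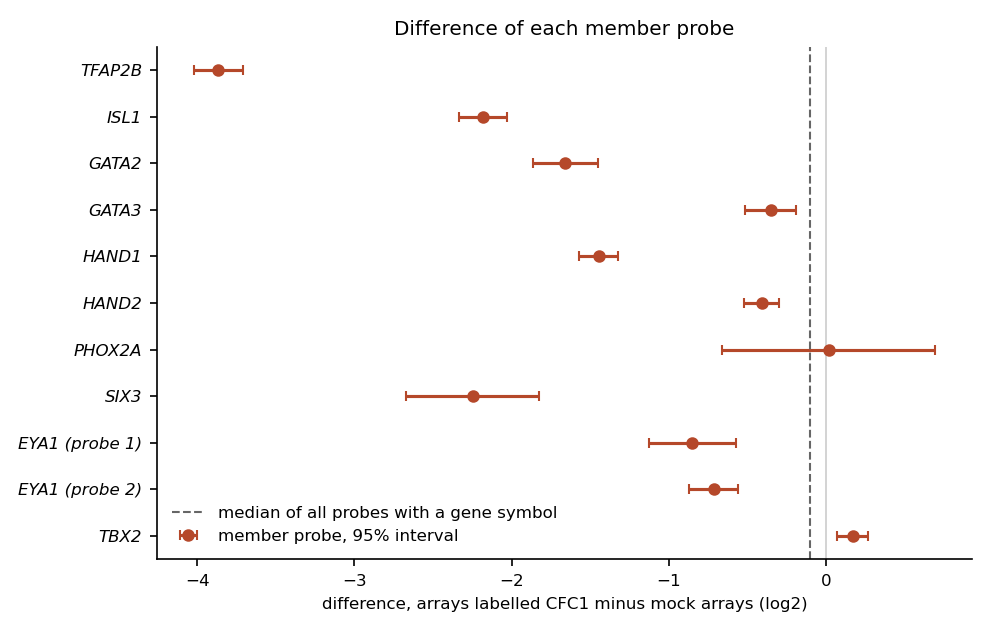
Difference of each of the 11 probes between arrays labelled CFC1 and mock arrays in log2 units, with its 95% interval from limma. The dashed line is the median of all probes with a gene symbol (-0.10). TFAP2B stands farthest to the left at -3.86, and the PHOX2A interval is the widest, from -0.66 to 0.69.

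Ordered by size, the falls were TFAP2B, SIX3, ISL1, GATA2, HAND1, EYA1, HAND2 and GATA3. The 95% intervals of SIX3 and ISL1 overlapped, as did those of SIX3 and GATA2, of GATA2 and HAND1 and of HAND2 and GATA3, while the TFAP2B interval overlapped no other. For 8 of the 11 probes 1 array held an exact 0, an array labelled CFC1 for 6 of them and a mock array for 2. For TFAP2B, SIX3, ISL1, GATA2 and HAND1, the group means ran from 0.06 to 0.16 in the arrays labelled CFC1, near the baseline, and from 1.504 to 3.98 in mock arrays. Because the baseline is not stated, this does not show which group departed from parental cells.

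Antisense or divergent transcripts beside the members were lower as well. Of 8 such names listed, 3 were measured, with 5 probes: 4 fell, none rose and 1 did not pass. Of all probes with a symbol, 26.4% were lower. SIX3-AS1 averaged 0.13 in the arrays labelled CFC1 and 4.61 in mock arrays, a difference of -4.48 (SE 0.16, limma adjusted p = 3.09e-07). That is a larger fall than for SIX3 itself. SIX3 minus SIX3-AS1 averaged -0.03 ± 0.27 in the arrays labelled CFC1 and -2.26 ± 0.34 in mock arrays (SD, n = 4 each), a difference of 2.23 (exact permutation p = 0.0286, also adjusted over 5 pairs). HAND2-AS1, the divergent neighbour of HAND2, stood at -1.32 (SE 0.06, limma adjusted p = 1.39e-06), beside -0.41 for HAND2. HAND2 minus HAND2-AS1 averaged 0.21 ± 0.11 in the arrays labelled CFC1 and -0.70 ± 0.11 in mock arrays (SD, n = 4 each), a difference of 0.92 (exact permutation p = 0.0286, also adjusted over 5 pairs). GATA3-AS1 had differences of -1.04, -0.83 and -0.81 on its 3 probes, of which the second (A_21_P0006623) did not pass (limma adjusted p = 0.0685). Without CFC1 replicate 1 or without mock replicate 3 that probe passed (adjusted p = 0.0407 and 0.0369). GATA3 minus the mean of these probes averaged 0.56 ± 0.20 in the arrays labelled CFC1 and 0.02 ± 0.24 in mock arrays (SD, n = 4 each), a difference of 0.54 (exact permutation p = 0.0286, also adjusted over 5 pairs). The pairs of a member with its antisense or divergent transcript were also chosen after their values were seen, so their p-values are descriptions only.

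The other genes of the members' families moved in both directions. Of 16 paralogs measured with 23 probes, 12 probes fell, 5 rose and 6 did not pass, so that 52.2% were lower and 21.7% higher, where 26.4% of all probes with a symbol were lower and 27.2% higher. The share of probes that rose lay near that of the array, and several probes of 1 gene are not independent. By gene, 5 of the 16 rose, 7 fell and 4 had no probe that passed. Among the cardiac and endodermal GATA factors, all probes fell. The difference was -4.30 for GATA6 (SE 0.04, limma adjusted p = 4.05e-09) and -3.14 for GATA5 (SE 0.12). The T-box gene TBX5, known from heart and forelimb, fell on its 2 probes, with -2.74 and -2.14. The paralogs with the largest rises had these values. TFAP2A, the AP-2 factor of early neural crest, rose by 3.19 on 1 probe (SE 0.10, limma adjusted p = 1.84e-07), and its other probe stood at 1.09 and did not pass (limma adjusted p = 0.209). That probe stood at 1.57 and passed without CFC1 replicate 2 (adjusted p = 0.0402), and stood at 0.54 without CFC1 replicate 3 (adjusted p = 0.358). EYA2 averaged 4.36 ± 0.04 in the arrays labelled CFC1 and 0.35 ± 0.35 in mock arrays (SD, n = 4 each), a rise of 4.01 (SE 0.17). SIX6, a relative of SIX3 in the eye field, rose by 2.62 (SE 0.10), with means of 2.25 in the arrays labelled CFC1 and -0.36 in mock arrays.

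**Figure D3:**
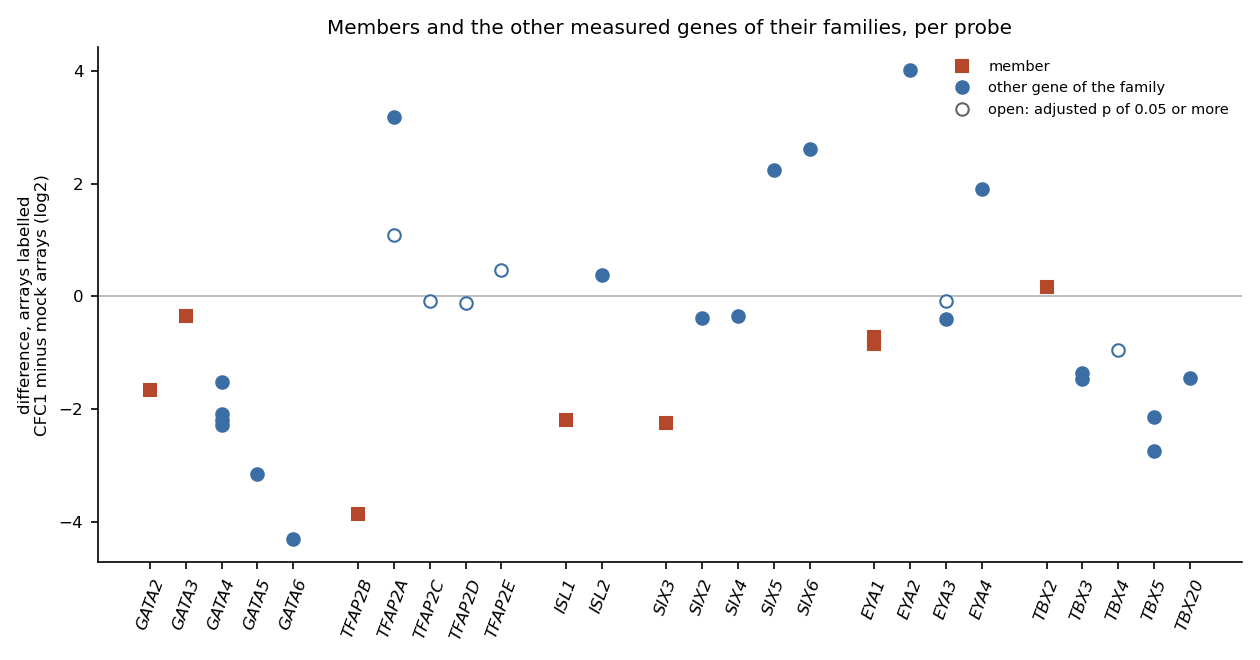
Difference between arrays labelled CFC1 and mock arrays in log2 units for each probe of the members with paralogs listed (squares; HAND1, HAND2 and PHOX2A are not drawn) and of the other measured genes of their families (circles, SIX2, SIX4 and SIX5 of the partner list included). Filled symbols passed an adjusted p of 0.05 in limma. TFAP2B at -3.86 stands opposite TFAP2A at 3.19, and EYA1 at -0.85 and -0.71 stands opposite EYA2 at 4.01, while the GATA probes all lie below 0.

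Transcripts of proteins known to bind the members, or to share an adaptor with them, were mostly lower. Of 21 partners listed, 20 were measured with 34 probes: 27 probes fell, 4 rose and 3 did not pass, 79.4% lower where 26.4% of all probes with a symbol were. By gene, 16 fell and 3 rose. The count of probes includes 6 each for TLE1 and TLE4, so its probes are not independent, and 18 of the 34 fell after quantile normalization. TLE1, a Groucho co-repressor that binds SIX3, fell on all 6 probes, with differences from -3.34 to -1.10, the smallest of which was -0.71 after quantile normalization. Transcripts of the LIM-only proteins LMO3, LMO1 and LMO2, which share the LDB1 adaptor with ISL1, fell. The differences were -3.32 (SE 0.14) for LMO3, -2.86 (SE 0.05) for LMO1 and -2.83 (SE 0.04) for LMO2. ZFPM1, the GATA cofactor FOG1, stood at -1.74 (SE 0.09), or at -1.16 after quantile normalization. SIX5 rose by 2.25 (SE 0.07).

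Other transcription factors of the adrenergic programme were mostly lower. Of 12 listed, 10 were measured with 13 probes. Of these probes, 10 fell, 2 rose and 1 did not pass, 76.9% lower where 26.4% of all probes with a symbol were. With quantile normalization 9 fell and 1 rose. Like the other related lists, this one was written with earlier results of these data known, so its counts describe it and test nothing. INSM2 averaged 0.05 ± 0.04 in the arrays labelled CFC1 and 3.87 ± 0.03 in mock arrays (SD, n = 4 each), a difference of -3.82 (SE 0.04, limma adjusted p = 4.43e-09). INSM1, a zinc finger protein of neuroendocrine cells, fell, with -1.08. KLF13 stood at -1.76 and -0.77 on its 2 probes, PBX3 at -0.93 and -0.66, TBX3, which is also a paralog of TBX2, at -1.46 and -1.36, and MEIS2 at -1.25, and each of these probes passed. After quantile normalization INSM1 stood at -0.69, the second PBX3 probe at -0.31, TBX3 at -0.93 and -0.89 and MEIS2 at -2.14, and all of these passed. The 2 probes that rose were those of KLF7, by 0.61, and MYCN, by 0.16, which were named after their values were seen. MYCN, of which NGP is known to carry extra copies, had a limma adjusted p of 0.0388 and did not pass under 9 of 16 alternatives, among them the omission of CFC1 replicate 1, 3 or 4 or of mock replicate 2, 3 or 4 (0.14 to 0.26 over the 16 alternatives).

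Genes listed as effectors of the adrenergic programme were lower in large part. All 17 genes listed, for making, storing and releasing catecholamines and for sympathetic signalling, were measured, with 23 probes. Of these probes, 16 fell, 4 rose and 3 did not pass, 69.6% lower where 26.4% of all probes with a symbol were. With quantile normalization 14 fell and 4 rose. SLC18A1, a vesicular monoamine transporter, fell on its 2 probes, with -4.12 and -1.92. NPY, neuropeptide Y, stood at -3.66 (SE 0.05), DDC, aromatic L-amino acid decarboxylase, at -3.34 and -1.68, and SLC6A2, the noradrenaline transporter, at -2.68 and -2.27, and all of these probes passed. Transcripts of the granule proteins SCG2 and CHGB fell, with -2.49 and -2.48. TH and DBH, named after their values were seen as the enzymes most used to mark noradrenergic cells, showed smaller differences. DBH, dopamine beta-hydroxylase, stood at -0.62 (SE 0.04, limma adjusted p = 1.54e-05), or at -0.31 after quantile normalization. TH, tyrosine hydroxylase, rose by 0.41 on 1 probe (SE 0.05, limma adjusted p = 0.000354), and its other probe stood at -0.27 (limma adjusted p = 0.63). The other 3 effector probes that rose, also named after their values were seen, showed larger differences than TH. A probe of RET, a receptor of the GDNF family ligands, rose by 1.84 while the other RET probe stood at -0.47 and passed, CYB561, an electron carrier of the granule membrane, rose by 1.34, and MAOA, a monoamine oxidase, rose by 1.04. Mesenchymal transcription factors, of which 15 of 16 were measured with 27 probes, held 7 probes that rose, 9 that fell and 11 that did not pass, and after quantile normalization 8 rose and 5 fell. The shares, 25.9% higher and 33.3% lower, lay near those of all probes with a symbol, 27.2% and 26.4%. NOTCH2 rose by 7.25 and 8.22 on its 2 probes, EGR3 by 3.38 and FOSL1 by 2.09, while PRRX1 stood at -2.30 and TBX18 at -1.61, both past the threshold. Both NOTCH2 probes averaged -0.06 in the arrays labelled CFC1, near the baseline, against -7.32 and -8.28 in mock arrays. With quantile normalization NOTCH2 stood at 4.98 and 5.68, EGR3 at 2.27, FOSL1 at 1.54, PRRX1 at -1.74 and TBX18 at -1.96, and all of these passed. TWIST1 had 2 probes that rose, 2 that fell and 1 that did not pass, from 1.19 to -2.04, and 1 of those that fell (A_23_P71073, -1.23) did not pass after quantile normalization (-0.61, adjusted p = 0.071).

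**Figure D4:**
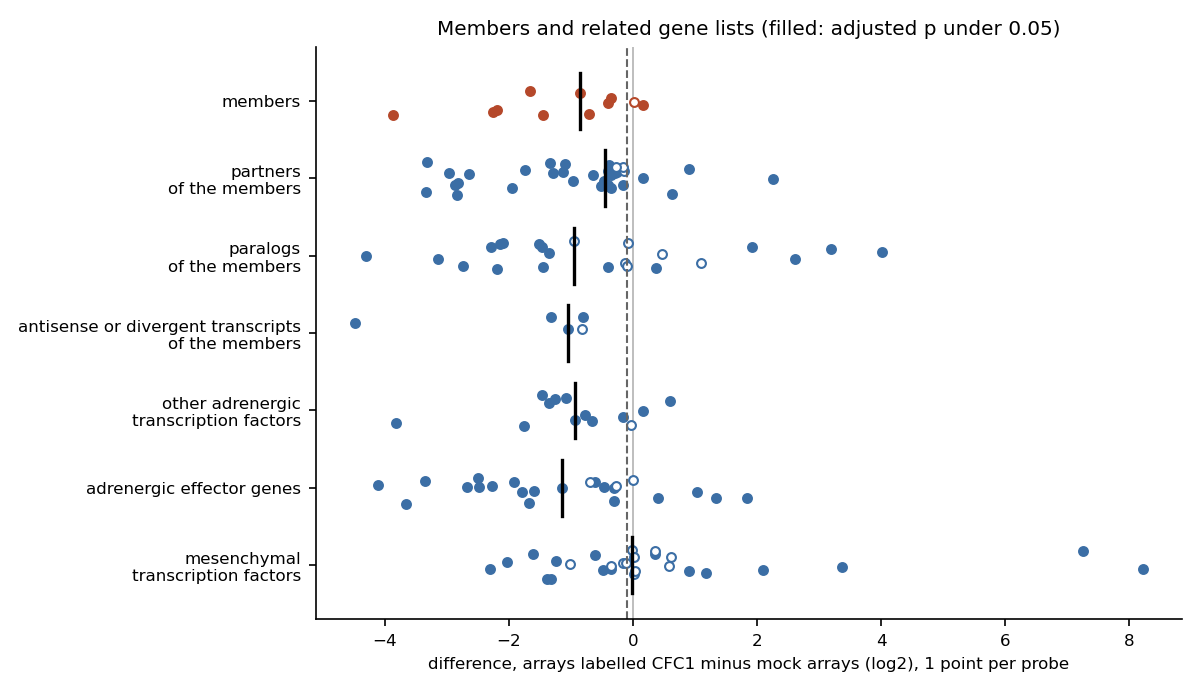
Difference between arrays labelled CFC1 and mock arrays in log2 units for each probe of the members and of 6 related lists, with the list median as a black line and the median of all probes with a symbol as a dashed line (-0.10). Filled points passed an adjusted p of 0.05 in limma. The medians of members (-0.85), other adrenergic transcription factors (-0.93) and effector genes (-1.14) lie left of that of mesenchymal transcription factors (-0.02).

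Markers of sympathetic cells and of fibroblasts moved with the members. For the counts that follow, 26.4% of all probes with a symbol were lower and 27.2% higher. Of 9 probes of neuroblastoma and sympathetic markers, 7 fell and 1, for TH, rose, with STMN2 lowest at -3.92, and the mean of the list ran from -0.14 to 0.04 over the arrays labelled CFC1 and from 1.45 to 1.58 over mock arrays. Of these 9 probes, 6 are already counted among the effector genes, so the list is no separate set. Of 10 probes of fibroblast and mural markers, 8 fell and none rose, with RGS5 at -3.93 and -3.73 and PDGFRA at -2.78, and the mean ran from -0.13 to 0.02 over the arrays labelled CFC1 and from 1.58 to 1.68 over mock arrays. Of 7 Schwann and glial probes, 2 fell, of 5 endothelial probes 1 fell (KDR, -3.08), and of 8 immune probes 1 rose (CD14, 1.16). The part of these cell types in the differences of the members was not tested, and baseline-relative values cannot show which markers are near background.

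Along the chromosomes, TFAP2B, ISL1 and GATA2 had more negative differences than any of their nearby genes. Each member was set beside the 5 measured genes on either side in RefSeq order, by the mean of each gene's probes and with no test. The 10 neighbours of TFAP2B ranged from -0.42 to 0.45, against -3.86 for TFAP2B, and those of GATA2 from -0.47 to 0.37, against -1.66 for GATA2. Of the 10 neighbours of ISL1, none fell below its -2.18, and 3 stood at -1 or lower. SIX3 was flanked by SIX3-AS1 at -4.48 and, 5 measured genes away on the other side, by EPAS1 at -4.71, an oxygen-regulated factor. Around HAND2 the neighbours ran from -2.91 to 2.09. PHOX2A at 0.02 had 8 of 10 neighbours below it, and TBX2 at 0.17 also had 8 of 10. Over all 100 neighbours, 16.0% stood at -1 or lower and 6.0% at 1 or higher, where 9.53% and 10.0% of 21509 genes did.

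**Figure D5:**
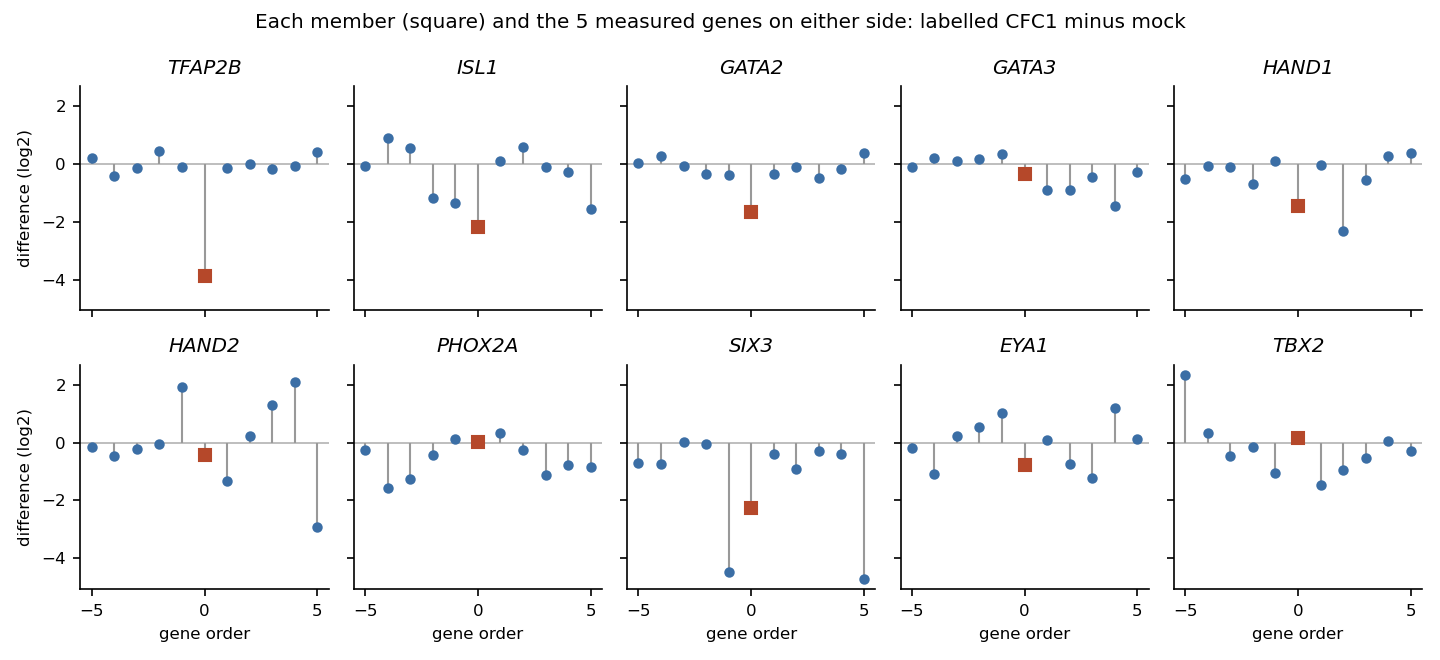
Difference between arrays labelled CFC1 and mock arrays in log2 units (mean of each gene's probes) for each member, drawn as a square at gene order 0, and for the 5 measured genes on either side in gene order. TFAP2B and GATA2 stand alone among neighbours within 0.5 of 0. SIX3 lies between SIX3-AS1 at -4.48 and SIX2 at -0.38, and EPAS1 at -4.71 is 5 measured genes away.

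The genes with the profile nearest to each member were found by the root mean square difference over the 8 arrays, among 21523 other genes, and this measure is dominated by the group difference. For TFAP2B they were NR2F1 (0.08) and PTPRZ1 (0.10), for ISL1 COTL1 (0.06) and PCDH8 (0.08), for GATA2 GCHFR (0.08) and LMCD1-AS1 (0.09), and for HAND1 BDKRB1 (0.03) and SNORD8 (0.04). For SIX3 they were MAP7 (0.14) and PCDHGB2 (0.16), for EYA1 PSPH (0.08) and PPFIBP1 (0.08), and for GATA3 MDK (0.03) and SHMT2 (0.05). HAND2 was nearest to LOC642361 (0.03) and ARFIP2 (0.03), and TBX2 to VPS4A and SNAPC2 (0.02 each). PHOX2A, with its split between replicates, had no neighbour closer than KRTAP4-11 (0.16) and WAS (0.20). Among the members themselves, ISL1 and SIX3 lay closest (0.21), followed by GATA2 and HAND1 (0.24).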

How the data were processed

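Total RNA labelled with Cyanine3 was hybridised to 8 one-colour Agilent arrays, per the labels' protocols. The deposited table holds log2 values (the base of the logarithm is read as 2), already set by the authors against a baseline for each probe. The sources used here give no feature extraction, background treatment, scaling or background flags, so no bound from background can be given. Values ran from -13.0 to 9.81 and array medians from -0.14 to 0.14. Precision is limited by the number of arrays.

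Without 140 control spots the table holds 50599 probes. The platform's annotation names 1 gene for 31993 of these, several genes for 0 and no gene for 18606. Symbols were updated through RefSeq accession (28423 probes), symbol (3069) or older synonym (479), and 22 were kept. Each probe was fitted in R 4.3.3 by limma 3.58.1 (functions lmFit and eBayes, without trend or replicate block), and Benjamini-Hochberg adjustment ran over all 50599 probes, two-sided, with a threshold of 0.05. The fit was tested on simulated data. Exact two-sided permutation tests used all 70 arrangements. Promoters are RefSeq sequences of GRCh38.p14.

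All probes of the members are named. From each related list up to 6 genes with the largest difference among those past the threshold are named, and the 2 nearest profiles of each member. The members and lists were chosen with earlier results of these data known. Alternatives were the replicate number as a block, 3 scalings, array weights, 3 variance settings, the mean of a gene's probes, natural logarithms and leaving out each array. Tables were joined in pandas 2.3.3 and numpy 2.4.6 under Python 3.11.15.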

Additional observations from a re-analysis of the deposited data

Results flagged for a closer look

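Single values were screened for the member probes, the CFC1 probe and the probes of list genes named for the largest differences. Probes named for another reason, among them those of TH, DBH and MYCN, were not screened. In these 130 groups of 4 arrays, 8 single values stood far from the other 3 of their group by Dixon's ratio, where chance alone gives about 1 in 20 groups. None was a probe of the 10 members or of CFC1. SIX3-AS1 had 1 in each group: replicate 4 stood at -0.297 in the arrays labelled CFC1, with the nearest at 0.216, and at 4.87 in mock arrays, with the nearest at 4.55. A NOTCH2 probe (A_33_P3258824) had replicate 3 at 0 in the arrays labelled CFC1, with the nearest at -0.0829, and replicate 4 at -7.66 in mock arrays, with the nearest at -8.43. A TWIST1 probe (A_21_P0005473) stood at 1.501 in replicate 4 of the arrays labelled CFC1, with the nearest at 1.40. In mock arrays, LMO3 stood at 2.71 in replicate 4 (nearest 3.20), EGR3 at -3.22 in replicate 4 (nearest -3.69) and a TLE1 probe (A_33_P3217719) at 1.31 in replicate 2 (nearest 1.13).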

How the results depend on the processing

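Over 18 alternatives for each of the 11 member probes (198 in all), 195 kept their side of the threshold, 3 lost the call and 0 called differences reversed; PHOX2A, never past the threshold, ran from -0.15 to 0.15. The 3 are HAND2 after quantile normalization (-0.13, adjusted p = 0.198) and TBX2 after quantile normalization (0.20, 0.0582) and after median centring (0.21, 0.078). TFAP2B ran from -3.91 to -3.51, ISL1 from -2.21 to -1.56, SIX3 from -2.41 to -1.71, GATA2 from -1.72 to -1.08 and HAND1 from -1.48 to -0.96, leaving aside the reading as natural logarithms, under which the TFAP2B probe would stand at -5.58. The number of member probes past the threshold was 10, and 8 after quantile normalization, 9 after median centring and 10 without any single array. The mean of a gene's probes gave 12456 of 21524 genes past the threshold, against 21289 of 50599 probes. The 2 counts are of different features, and the fit of gene means leaves out probes with no gene symbol. Leaving out each array gave 20144 to 20472 probes. Of the probes past the threshold, 47.6% were higher in the arrays labelled CFC1, and 50.7% were after median centring, 55.2% with E1A control spots and 57.3% after quantile normalization.

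The CFC1 probe passed with array weights (-0.805, adjusted p = 0.046) and in the fit of gene means (-0.796, adjusted p = 0.0398), and lay between -0.944 and -0.568 when each array was left out. The labels name no source that equal replicate numbers share. The correlation of deviations over probes was 0.132, 0.197, 0.095 and 0.173 for equal numbers and ran from -0.11 to 0.059 for others, and all 8 arrays correlated best with their own number, which is a hint of pairing from the data and not from the design. With the replicate block, 21980 probes passed, 10 of them of members, and the PHOX2A interval narrowed to -0.11 to 0.14 (adjusted p = 0.784), and the second GATA3-AS1 probe passed (adjusted p = 0.000974). The CFC1 probe stood at -0.796 (adjusted p = 0.0972). The sources used here give no background flags or slides, so a filter on dim probes and a slide block were not run.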
